A study of Homo sapiens with 2 samples.

Results

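The miR-106b-25 cluster on chromosome 7 and the miR-106a-363 cluster on chromosome X are paralogs of the better known miR-17-92 cluster on chromosome 13. The 10 microRNAs described here were chosen by name, out of 2656 mature microRNAs in the count table. They are the 6 arms of the miR-106b-25 hairpins (hsa-miR-106b-5p, hsa-miR-106b-3p, hsa-miR-93-5p, hsa-miR-93-3p, hsa-miR-25-3p and hsa-miR-25-5p) and 4 guide arms of the miR-106a-363 hairpins (hsa-miR-106a-5p, hsa-miR-18b-5p, hsa-miR-20b-5p and hsa-miR-363-3p). Small RNA was sequenced from MDA-MB-231, an established line of human triple-negative breast cancer cells. One group was transduced with an shRNA against ELOVL5, an elongase of polyunsaturated fatty acids (shELOVL5), and the other with the shRNA labelled shLuc, the study's control. Both groups therefore carried an shRNA, and each gave 1 library. The sources used here do not give whether the cells were a pool or a clone. ELOVL5 messenger RNA is not among the features counted, so the knockdown was not checked here.

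A microRNA is cut from a hairpin precursor whose 5p and 3p arms can each become a mature strand. The more abundant strand is called the guide arm and the other the passenger arm. Bases 2 to 8 of the mature strand, the seed, pair with target messenger RNAs, so that microRNAs with the same seed share many targets. The miR-17 seed family is known to repress the cell cycle inhibitor CDKN1A and the pro-apoptotic BCL2L11, and the seed of miR-25 and miR-92a also targets BCL2L11. The miR-106b-25 hairpins lie in an intron of MCM7, a subunit of the replicative helicase, and the cluster is described as growth-promoting in several carcinomas.

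The mature sequences show how the members group and which of them a short read can barely tell apart. They were taken from RefSeq on GRCh38.p14, which held all 10 members, and are written 5′ to 3′ with the seed in capitals. The seed of the miR-17 family is carried by 4 members, 2 from each cluster.
hsa-miR-106b-5p: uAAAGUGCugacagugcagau
hsa-miR-93-5p: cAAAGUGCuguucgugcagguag
hsa-miR-106a-5p: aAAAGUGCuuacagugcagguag
hsa-miR-20b-5p: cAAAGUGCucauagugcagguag
Their chromosome 13 counterparts are shown because they have the same seed and nearly the same length and sequence.
hsa-miR-17-5p: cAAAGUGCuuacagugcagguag
hsa-miR-20a-5p: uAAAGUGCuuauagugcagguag
The miR-18 seed differs from it within the seed itself, and the chromosome X and chromosome 13 forms share it.
hsa-miR-18b-5p: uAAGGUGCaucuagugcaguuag
hsa-miR-18a-5p: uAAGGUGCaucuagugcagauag
The seed of the miR-25 and miR-92 family is carried by 1 member of each cluster and by the chromosome 13 microRNA hsa-miR-92a-3p.
hsa-miR-25-3p: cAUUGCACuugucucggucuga
hsa-miR-363-3p: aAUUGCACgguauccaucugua
hsa-miR-92a-3p: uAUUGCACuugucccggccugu
The 3 remaining arms of the chromosome 7 hairpins each have a seed of their own, which no other counted microRNA with a matched sequence had.
hsa-miR-106b-3p: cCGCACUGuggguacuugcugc
hsa-miR-93-3p: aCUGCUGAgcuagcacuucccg
hsa-miR-25-5p: aGGCGGAGacuugggcaauug

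Counting positions from 1 at the 5′ end, hsa-miR-106a-5p differs from hsa-miR-17-5p by the single substitution C1A, at the outermost base. In the same way hsa-miR-18b-5p differs from hsa-miR-18a-5p by A20U alone, and hsa-miR-20b-5p differs from hsa-miR-20a-5p by U1C and U10C. The chromosome 7 members are more distinct. hsa-miR-93-5p differs from hsa-miR-17-5p at 4 positions (U10G, A11U, C12U and A13C). hsa-miR-106b-5p is 21 bases long, and over that length it differs from hsa-miR-17-5p at 3 (C1U, U10G and G20A). How many mismatches were allowed, and how reads with several matches were shared out, is not stated in the labels or the table, so the counts of the chromosome X guide arms may include reads of their chromosome 13 counterparts. Among the arms with seeds outside the miR-17 family, the nearest counted sequence lay 8 edits (substituted, inserted or deleted bases) from hsa-miR-106b-3p and from hsa-miR-25-5p. It lay 7 edits from hsa-miR-93-3p, and 4 from hsa-miR-25-3p, where it was hsa-miR-92a-3p.

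On GRCh38 (GENCODE release 29) the 3 chromosome 7 hairpins span 515 bases of the minus strand. In the direction of transcription MIR106B (100093993 to 100094074) comes first, then MIR93 (100093768 to 100093847), then MIR25 (100093560 to 100093643). All 3 lie inside MCM7 (100092728 to 100101940) and overlap 0 of its annotated exons. The 6 chromosome X hairpins span 901 bases, from MIR106A (134170198 to 134170278) to MIR363 (134169378 to 134169452), also on the minus strand. Each overlaps 1 annotated exon of the noncoding gene AC002407.1. The cluster also holds MIR19B2 and MIR92A2, whose guide arms have the same sequence as those of chromosome 13 and are therefore not assigned to either cluster.

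The libraries held 6811811 microRNA counts (shELOVL5) and 7109272 (shLuc). Levels below are counts per 1000000 after TMM scaling (CPM), ratios are shELOVL5 over shLuc, and brackets give 95% exact intervals. In RNA from a whole culture, fewer cells with a microRNA and less of it per cell cannot be told apart. With 1 library per condition there is no replicate check and no p-value, and the intervals cover counting error only. The microRNAs known to be high in this line (hsa-miR-21-5p, hsa-miR-100-5p, hsa-miR-221-3p and hsa-miR-222-3p) made up 44.1% of counts in shELOVL5 and 44.4% in shLuc. The 6 epithelial markers of the miR-200 family and miR-205 summed to 387 and 298 CPM. The 7 blood markers summed to 331 and 398 CPM, with 5 of them detected in shELOVL5 and 4 in shLuc, and hsa-miR-486-5p gave 311 and 397 CPM of that. Of the other blood markers, hsa-miR-142-3p had 45 counts in shELOVL5 and 2 in shLuc, hsa-miR-142-5p had 84 and 6, and hsa-miR-451a had 6 and 2. hsa-miR-150-5p had 1 and 0 counts, and hsa-miR-144-3p and hsa-miR-223-3p had 0 in both libraries. The 4 markers of endothelium and stroma summed to 761 and 633 CPM, of which hsa-miR-126-3p gave 750 and 626 CPM. The others had few counts, at 63 and 37 for hsa-miR-126-5p, 11 and 12 for hsa-miR-143-3p, and 3 and 2 for hsa-miR-145-5p. The 6 markers of stem and placental cells had 17 and 5 counts. Whether RNA of other cells took part in any value below was not tested. The labels' extraction text speaks of frozen tumor material, whereas the labels and the growth protocol name the cell line.

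The chromosome 7 arms had far more counts than the chromosome X guide arms that can be told from chromosome 13 by sequence. In the shELOVL5 library the 6 chromosome 7 arms together had 93233 counts, 1.37% of all microRNA counts, and in shLuc 102379 counts, 1.44%. The 4 chromosome X guide arms had 792 and 615 counts, 0.0116% and 0.00865%. Of the 10 members, 7 were expressed by the rule used here, a mean of at least 50 CPM and at least 100 counts over both libraries, and those 7 had 50 CPM or more in each library. The other 3 were hsa-miR-18b-5p, hsa-miR-20b-5p and hsa-miR-363-3p.

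**Figure D1:**
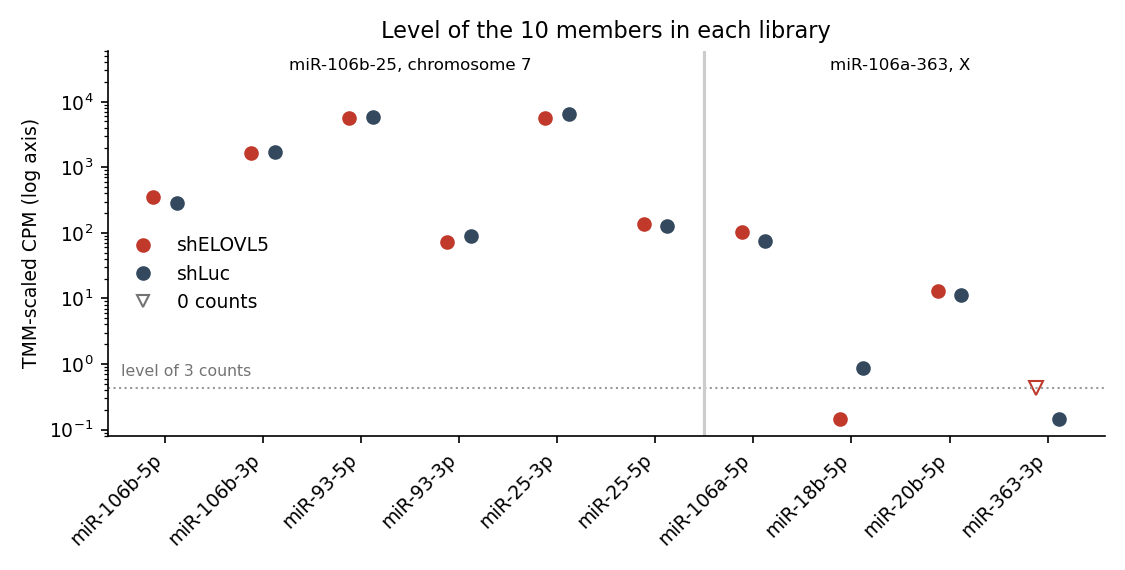
Each point is the level of 1 member in 1 library, in TMM-scaled counts per 1000000 on a log axis; the dotted line is the level of 3 counts, and the open triangle is a count of 0 drawn there. hsa-miR-25-3p and hsa-miR-93-5p lie highest, at 5561 to 6410 CPM, and hsa-miR-18b-5p and hsa-miR-363-3p lie near or under the level of 3 counts.

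In the cluster on chromosome 7, the guide arms of the miR-25 and miR-93 hairpins were the most abundant and were slightly lower in shELOVL5. hsa-miR-25-3p, the guide of the last hairpin, had 39659 counts (5750 CPM) in shELOVL5 and 45008 (6410 CPM) in shLuc. Its ratio was 0.897 (0.885 to 0.909), and its rank among all counted microRNAs was 29 in shELOVL5 and 28 in shLuc. hsa-miR-93-5p, the main strand of the middle hairpin, had 38353 counts (5561 CPM) and 41609 (5926 CPM). Its ratio was 0.938 (0.925 to 0.951), and its rank was 30 in both libraries. Both lay in the upper part of the expression range, and neither differed by more than 1.25-fold.

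In the miR-106b hairpin the 5p arm was higher in shELOVL5 and the 3p arm lower, each with an interval clear of 1. hsa-miR-106b-5p, which carries the miR-17 family seed and is usually named as the guide, had 2442 counts (354 CPM) in shELOVL5 and 2036 (290 CPM) in shLuc. Its ratio was 1.22 (1.15 to 1.30). hsa-miR-106b-3p had 11329 counts (1643 CPM) and 12198 (1737 CPM), with a ratio of 0.945 (0.922 to 0.970). The 3p arm was thus the more abundant strand of this hairpin in both libraries, against the usual naming, by 4.64 times in shELOVL5 and 5.99 times in shLuc.

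The minor arms of the other hairpins were rare. hsa-miR-93-3p had 505 counts (73.2 CPM) in shELOVL5 and 632 (90.0 CPM) in shLuc, a ratio of 0.813 (0.722 to 0.916). hsa-miR-25-5p had 945 counts (137 CPM) and 896 (128 CPM), a ratio of 1.07 (0.979 to 1.18) whose interval includes 1. The passenger of miR-93 was therefore lower in shELOVL5, like its guide, while no difference was detectable at this depth and scaling for the passenger of miR-25. Scaling to total counts gave hsa-miR-25-5p a ratio of 1.10, with an interval above 1.

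Summed over the 6 arms, the chromosome 7 cluster had a ratio of 0.927 (0.919 to 0.935), with 13518 CPM in shELOVL5 and 14581 CPM in shLuc. By hairpin, taking both arms together, the ratio was 0.985 (0.962 to 1.01) for miR-106b, 0.936 (0.924 to 0.949) for miR-93 and 0.900 (0.889 to 0.913) for miR-25. With both arms summed, the ratio was thus highest for the hairpin nearest the start of the transcript and lowest for the one farthest from it. The intervals of these sums did not overlap between neighbouring hairpins, although the whole range was small. Single arms did not follow this order. For miR-106b, miR-93 and miR-25 in turn, the 5p ratios were 1.22, 0.938 and 1.07, and the 3p ratios 0.945, 0.813 and 0.897. The intervals of the more abundant arms of miR-106b (0.922 to 0.970) and miR-93 (0.925 to 0.951) overlapped. The make-up of the cluster moved little. The miR-25 hairpin gave 43.6% (43.2 to 43.9%) of the cluster's counts in shELOVL5 and 44.8% (44.5 to 45.1%) in shLuc. The miR-93 hairpin gave 41.7% and 41.3%, and miR-106b 14.8% and 13.9%. Levels of different microRNAs in one library also depend on how well each strand is ligated and amplified, which was not measured.

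Against all expressed microRNAs these differences were ordinary. No expressed member was 2-fold different in either direction. Over the 191 expressed microRNAs 3 were at least 2-fold higher (1.57%), 0 were at least 2-fold lower (0.0%), and the share in either direction was thus also 1.57%. At 1.25-fold, 1 member differed, hsa-miR-106a-5p, while 38 of the 191 (19.9%) did. The counting interval lay above 1 for 2 members, hsa-miR-106b-5p and hsa-miR-106a-5p, and below 1 for 4 members, all on chromosome 7 (hsa-miR-25-3p, hsa-miR-93-5p, hsa-miR-106b-3p and hsa-miR-93-3p). Over the 191 it lay above 1 for 31.9% and below 1 for 41.9%, so these counts are not far from the background. Such intervals narrow with depth. Among the 68 microRNAs averaging 1000 CPM or more, the interval lay above 1 for 32.4% and below for 52.9%. The members above that level, hsa-miR-25-3p, hsa-miR-93-5p and hsa-miR-106b-3p, were all below 1. The median log2 ratio of the 6 chromosome 7 arms was -0.086, and that of all 191 expressed microRNAs was -0.033.

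**Figure D2:**
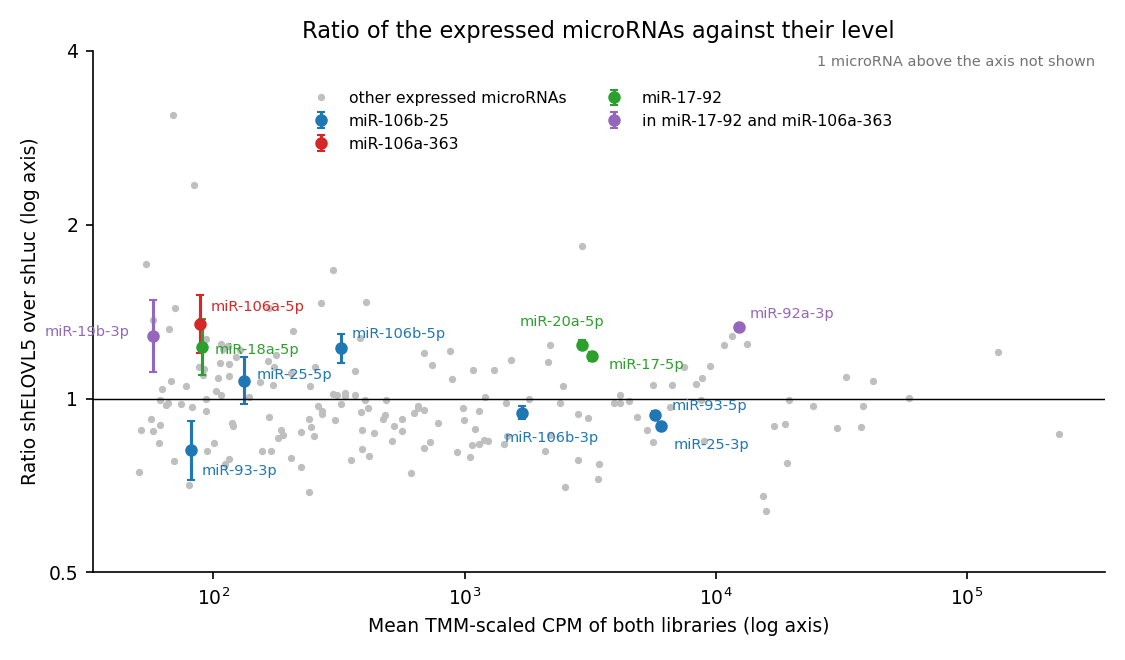
Each point is 1 expressed microRNA, by its mean TMM-scaled CPM over both libraries and its ratio of shELOVL5 over shLuc, both on log axes; bars are 95% counting intervals, drawn for the named microRNAs. The chromosome 7 arms (blue) lie from 0.813 to 1.22 within the grey cloud, and the guide arms shared with or belonging to miR-17-92 (green and purple) lie between 1.18 and 1.33.

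Within each of the 3 chromosome 7 hairpins, the 5p arm took a larger share of the hairpin's counts in shELOVL5 than in shLuc. These shares do not depend on how the libraries were scaled. The hairpin of miR-106b is shown, with its arms in capitals, because its strands were the most evenly used.
MIR106B hairpin: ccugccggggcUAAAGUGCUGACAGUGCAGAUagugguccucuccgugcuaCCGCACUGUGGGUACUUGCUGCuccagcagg
The 5p arm of miR-106b made up 17.7% (17.1 to 18.4%) of both arms' counts in the shELOVL5 library, against 14.3% (13.7 to 14.9%) in shLuc. The odds of 5p over 3p were 1.29 times as high in shELOVL5 (1.21 to 1.38). In the miR-25 hairpin the 5p arm is the passenger, and it took 2.33% (2.18 to 2.48%) and 1.95% (1.83 to 2.08%), an odds ratio of 1.20 (1.09 to 1.31). In the miR-93 hairpin the 5p arm is the guide, and it took 98.7% (98.6 to 98.8%) and 98.5% (98.4 to 98.6%), an odds ratio of 1.15 (1.02 to 1.30). The direction was therefore toward 5p in all 3. That meant toward the less abundant strand in miR-106b and miR-25, and toward the more abundant strand in miR-93.

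Odds ratios with an interval clear of 1 were found in other hairpins too, in both directions. Over 190 hairpins with at least 100 counts and both arms present in each library, the interval of the odds ratio lay above 1 in 14.7% and below 1 in 14.2%. Over the 78 hairpins with at least 10000 counts, among which all 3 fall, it lay above 1 in 23.1% and below 1 in 23.1%. The shift in miR-106b was matched or exceeded, in either direction, by 78 of the 190 hairpins (itself included). Some of those rest on few counts, such as miR-101-2 with 2 and 1 counts of its 5p arm, so this count does not compare hairpins of like depth. Among the 190, some precursors of the same microRNA have identical counts, such as miR-9-1, miR-9-2 and miR-9-3. The median shift was 1.23-fold over the 190 and 1.17-fold over the 78. Of the 5 chromosome 13 hairpins that could be measured this way, miR-17 at 0.648 (0.474 to 0.879) and miR-20a at 0.287 (0.0702 to 0.879) lay on the other side. The value for miR-20a rests on 17 and 4 counts of its 3p arm. The intervals of miR-18a at 0.897 (0.747 to 1.08), miR-19b-1 at 1.80 (0.771 to 4.55) and miR-92a-1 at 1.17 (0.996 to 1.37) included 1.

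**Figure D3:**
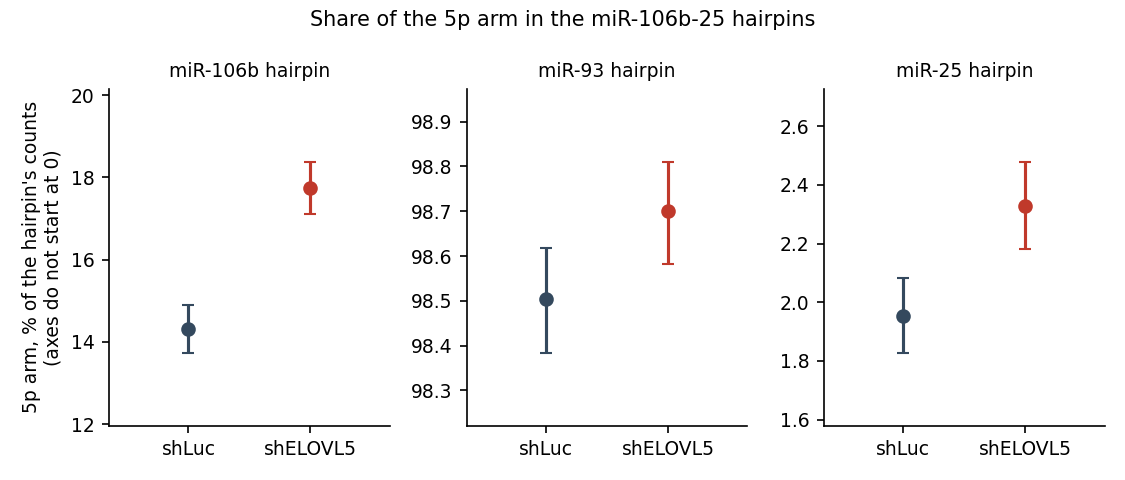
Each panel gives the share of the 5p arm among the counts of 1 hairpin, in percent, for each library, with 95% exact binomial intervals; the axes differ between panels and do not start at 0. The shELOVL5 value is the higher one in all 3 panels, at 17.7% against 14.3%, 98.7% against 98.5% and 2.33% against 1.95%.

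hsa-miR-93-5p and hsa-miR-25-3p each made up a smaller part of the microRNAs with their seed in shELOVL5 than in shLuc. For hsa-miR-106b-5p the part was larger, with an odds ratio of 1.14 (1.07 to 1.21). All counted microRNAs with the miR-17 family seed and a matched sequence together had 87974 counts in shELOVL5 and 83273 in shLuc, a ratio of 1.08 (1.07 to 1.09). hsa-miR-93-5p was the largest contributor in both. It gave 43.6% (43.3 to 43.9%) of this pool in shELOVL5 and 50.0% (49.6 to 50.3%) in shLuc, an odds ratio of 0.774 (0.759 to 0.789). hsa-miR-106b-5p gave 2.78% (2.67 to 2.89%) and 2.44% (2.34 to 2.55%), so the pair from chromosome 7 together gave 46.4% (46.0 to 46.7%) and 52.4% (52.1 to 52.8%). The chromosome 13 pair, hsa-miR-17-5p and hsa-miR-20a-5p, gave 52.7% (52.4 to 53.1%) and 46.9% (46.5 to 47.2%). By counts, the pair with the larger part of this pool thus differed between the libraries. Counts of different strands also depend on ligation and amplification, which were not measured, so which pair was larger in the cells is not known. The chromosome X pair, hsa-miR-106a-5p and hsa-miR-20b-5p, gave 0.899% (0.838 to 0.964%) and 0.730% (0.673 to 0.790%).

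The pool with the seed of hsa-miR-25-3p had 145223 counts in shELOVL5 and 129179 in shLuc, a ratio of 1.14 (1.14 to 1.15). hsa-miR-25-3p gave 27.3% (27.1 to 27.5%) of it in shELOVL5 and 34.8% (34.6 to 35.1%) in shLuc, an odds ratio of 0.703 (0.691 to 0.714). The chief member of the pool was hsa-miR-92a-3p, a guide arm encoded on chromosomes 13 and X, with 67.1% (66.9 to 67.4%) and 57.7% (57.4 to 57.9%). It is listed under 2 precursors, whose rows may hold the same reads. With both rows summed the share of hsa-miR-25-3p came to 16.9% in shELOVL5 and 22.7% in shLuc, lower in shELOVL5 as before. hsa-miR-92b-3p, from a separate locus, gave 5.41% and 7.34%, and hsa-miR-32-5p gave 0.158% and 0.137%. hsa-miR-363-3p, the chromosome X member, had 0 counts of the pool in shELOVL5 and 1 in shLuc. In both pools the total was higher in shELOVL5 while the chromosome 7 guide with most counts was lower.

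**Figure D4:**
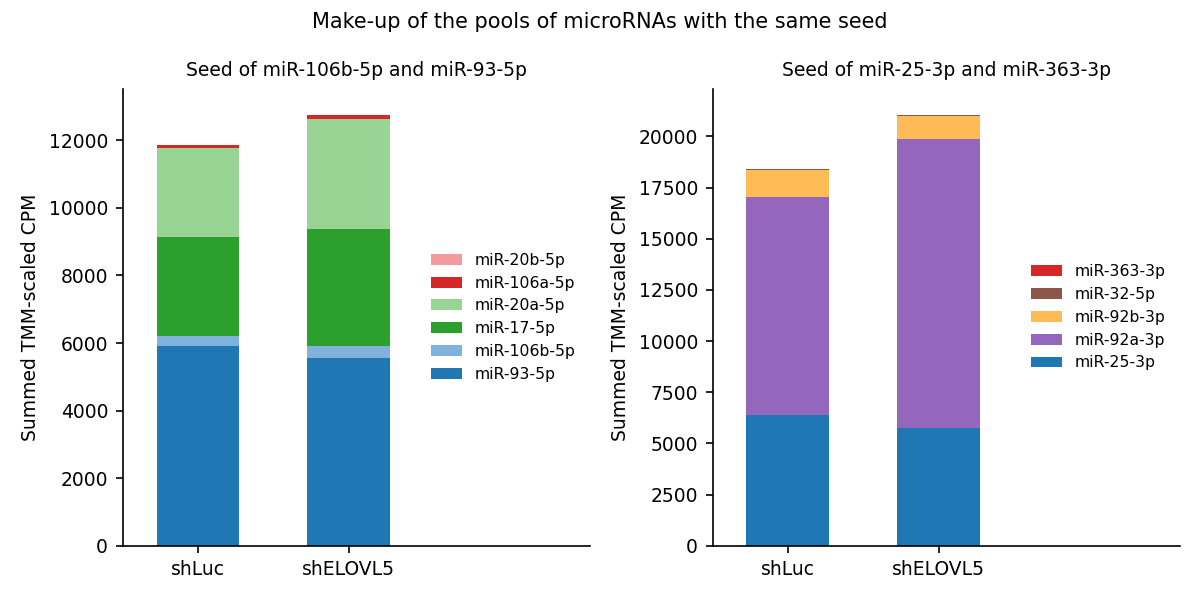
Stacked bars give the summed TMM-scaled CPM of the microRNAs with the same seed, for each library, with 1 colour per microRNA and the chromosome 7 members in blue at the base. The dark blue segments (hsa-miR-93-5p on the left, hsa-miR-25-3p on the right) are lower in shELOVL5, at 5561 against 5926 CPM and 5750 against 6410 CPM, while both bars are taller.

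The related guide arms of chromosome 13 all stood above 1. hsa-miR-17-5p, the founding member of the family, had 23952 counts in shELOVL5 and 20604 in shLuc, a ratio of 1.18 (1.16 to 1.21). hsa-miR-20a-5p had 22433 and 18416, a ratio of 1.24 (1.22 to 1.26). hsa-miR-18a-5p had 688 and 571, a ratio of 1.23 (1.10 to 1.37), and hsa-miR-19a-3p, below the expression limit, had 172 and 149, a ratio of 1.18 (0.938 to 1.47). Of the arms encoded on both chromosomes 13 and X, hsa-miR-19b-3p stood at 1.28 (1.11 to 1.48) and hsa-miR-92a-3p at 1.33 (1.32 to 1.34). Of these 6 arms, 5 were expressed and all 5 had intervals above 1, as did 31.9% of all 191 expressed microRNAs. The median ratio of the 5 was 1.24, against 0.978 for all 191. Arms of the same cluster are not independent observations. The chromosome 7 guides hsa-miR-25-3p and hsa-miR-93-5p lay below 1, and hsa-miR-106b-5p, at 1.22, lay among the chromosome 13 values.

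On chromosome X, hsa-miR-106a-5p accounted for most of the guide arm counts. It had 701 counts (102 CPM) in shELOVL5 and 530 (75.5 CPM) in shLuc, which was 88.5% (86.1 to 90.6%) and 86.2% (83.2 to 88.8%) of the 4 guide arms. Its ratio was 1.35 (1.20 to 1.51). Set against hsa-miR-17-5p, from which it differs at its outermost base, it made up 2.84% (2.64 to 3.06%) of the counts of the pair in shELOVL5 and 2.51% (2.30 to 2.73%) in shLuc. Its odds against hsa-miR-17-5p were 1.14 times as high in shELOVL5 (1.01 to 1.28). Summed with hsa-miR-17-5p, the ratio of the pair was 1.19 (1.17 to 1.21), close to that of hsa-miR-17-5p alone. Whether counts of hsa-miR-106a-5p came from chromosome X or from variant reads of hsa-miR-17-5p was not tested.

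The other guide arms of the cluster were rare. hsa-miR-20b-5p had 90 counts (13.05 CPM) in shELOVL5 and 78 (11.1 CPM) in shLuc. Its ratio of 1.17 (0.858 to 1.61) could not be told from 1 at this depth. It made up 0.400% (0.321 to 0.491%) and 0.422% (0.334 to 0.526%) of its pair with hsa-miR-20a-5p. hsa-miR-18b-5p had 1 count (0.145 CPM) and 6 counts (0.855 CPM), a ratio of 0.170 with an interval from 0.00369 to 1.40. The ratio was 0.879 with 5 CPM added to both values and 1.22 when summed with hsa-miR-18a-5p, so no direction is given for it. It made up 0.145% (0.00367 to 0.806%) and 1.04% (0.383 to 2.25%) of its pair with hsa-miR-18a-5p. For hsa-miR-363-3p, with 0 and 1 counts, no ratio is given, since both values lie under the limit of 3 counts that a count of 0 allows. That limit is 0.435 CPM in shELOVL5 and 0.427 CPM in shLuc. Together the 4 guide arms had a ratio of 1.31 (1.18 to 1.46), and the 3 without hsa-miR-106a-5p had 91 and 85 counts, a ratio of 1.09 (0.802 to 1.48).

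The remaining arms of the chromosome X hairpins were all at or near 0. hsa-miR-106a-3p, hsa-miR-20b-3p, hsa-miR-19b-2-5p, hsa-miR-92a-2-5p and hsa-miR-363-5p each had 0 counts in both libraries, and hsa-miR-18b-3p had 1 and 2. The corresponding chromosome 13 arms were counted at higher levels. hsa-miR-17-3p had 122 counts in shELOVL5 and 68 in shLuc, hsa-miR-18a-3p 458 and 341, and hsa-miR-92a-1-5p 407 and 267. hsa-miR-19b-1-5p had 20 and 9 counts and hsa-miR-20a-3p 17 and 4. Over the 6 passenger arms of each cluster the sums were 1 and 2 counts on chromosome X, and 1024 and 689 on chromosome 13. The chromosome 13 sum includes hsa-miR-19a-5p, with 0 counts in both libraries, although its guide hsa-miR-19a-3p had 172 and 149. That arm and hsa-miR-363-5p have no counterpart in the other cluster. A passenger arm of a weakly expressed hairpin can be missed at any depth, so counts of 0 give upper limits and not absence.

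The guide arms common to both clusters do not separate the loci in this table. hsa-miR-92a-3p was listed with 97473 and 74505 counts under its chromosome 13 precursor and with 89997 and 68703 under its chromosome X precursor. The latter came to 92.3% and 92.2% of the former. hsa-miR-19b-3p was listed with 432 and 350 counts under the chromosome 13 precursor and 445 and 353 under that of chromosome X. The near-equal rows stood beside 0 counts of hsa-miR-92a-2-5p and hsa-miR-19b-2-5p, the arms that only chromosome X encodes.

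**Figure D5:**
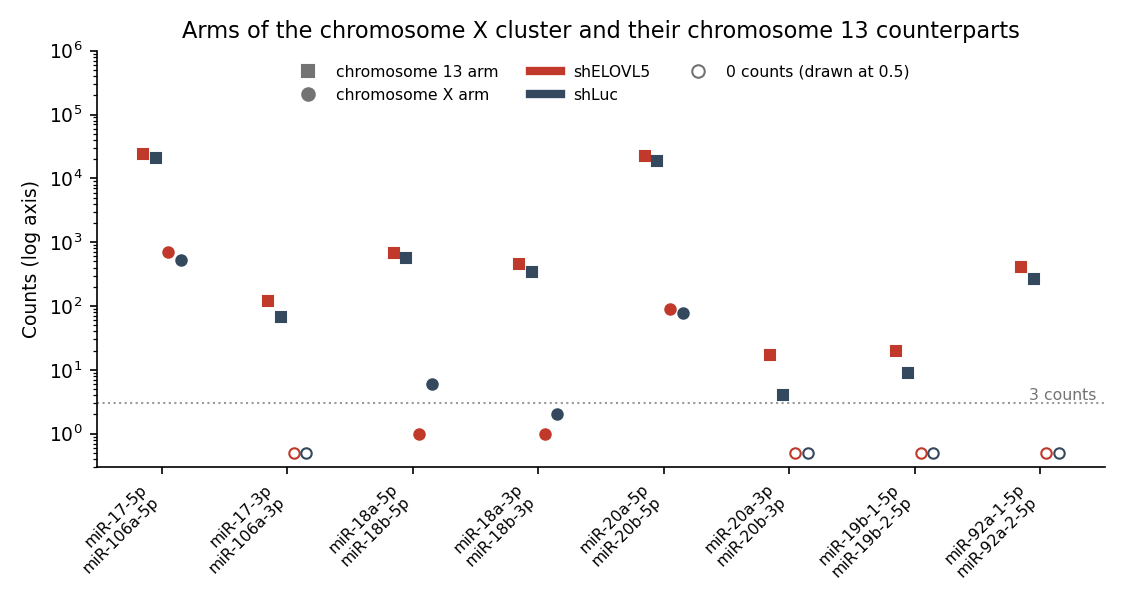
For each pair of corresponding arms, squares give the counts of the chromosome 13 arm and circles those of the chromosome X arm, by library and on a log axis; open circles are counts of 0, drawn at 0.5 because a log axis has no 0, and the dotted line marks 3 counts. The chromosome 13 arm is the higher of each pair in both libraries, and among the chromosome X arms hsa-miR-106a-5p (701 and 530 counts), hsa-miR-20b-5p (90 and 78) and hsa-miR-18b-5p in shLuc (6) lie above 3 counts.

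Set directly against each other, the chromosome X guide arms made up a slightly larger part of the members' counts in shELOVL5. The 6 chromosome 7 arms gave 99.2% of the counts of the 10 members in shELOVL5 and 99.4% in shLuc. The odds of a chromosome X over a chromosome 7 count were 1.41 times as high in shELOVL5 (1.27 to 1.57), a value that no scaling of the libraries can move. Without hsa-miR-106a-5p the odds ratio was 1.18 (0.865 to 1.60). The comparison thus rests mainly on 1 microRNA whose reads may be shared with hsa-miR-17-5p.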

How the data were processed

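The deposited table lists, for each precursor and mature microRNA, raw read counts of 1 shELOVL5 and 1 shLuc library, as the authors gave them. Per the labels' protocols, libraries were made with a kit for small RNA and read as single 50-base reads. The submitters' processing notes list Bowtie 1.1.1, cutadapt 2.10 and FastQC 0.11.9 but no settings. Not given in the sources used here are the counting program, microRNA release, genome build and handling of multi-mapping reads, and no molecular identifiers are described, so intervals and limits cover counting error only.

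The 2886 rows (1917 precursors) were reduced to 2656 mature microRNAs. For the 166 listed under several precursors the highest row per library was kept, and no member is among these. Counts were scaled with TMM factors (edgeR 4.0.16, R 4.3.3) to counts per 1000000. Ratios have 95% intervals from the exact Clopper-Pearson interval of the share of a library in both counts. Shares have exact binomial intervals, and odds ratios exact conditional intervals (Python 3.11.15, scipy 1.17.1). A count of 0 was taken to allow 3 counts. Scripts were tested on simulated data. No p-value was computed, because each condition has 1 library. A microRNA was expressed at an unscaled mean of at least 50 CPM and at least 100 counts over both libraries. RefSeq mature sequences (GRCh38.p14) matched 2367 of the 2656 names.

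All 10 members are named, with the other arms of their cluster, the guide arms of miR-17-92 and same-seed microRNAs with at least 100 counts. The passenger arms of miR-17-92 were added after values were seen. Members and lists were chosen with earlier results of these data known. Alternatives covered scaling (total, DESeq2 1.42.0, total without the 2 most abundant microRNAs), precursor rows, filters, thinning, 5 CPM added, the fold rule and the members summed.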

Additional observations from a re-analysis of the deposited data

How the results depend on the processing

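No paired analysis was possible because there is only 1 library of each kind. The ratio of the miR-106b-25 cluster, 0.927, became 0.9504 with scaling to total counts, 0.911 with DESeq2 size factors, 0.952 with the total without the 2 most abundant microRNAs and 0.951 without hsa-miR-25-3p. The first 3 are changes of a common factor, and the last sums fewer members. The ratio of the miR-106a-363 guide arms, 1.31, became 1.09 without hsa-miR-106a-5p and 1.10 for hsa-miR-20b-5p and hsa-miR-18b-5p alone, the latter chosen after seeing the data. Without hsa-miR-106a-5p the odds ratio of cluster against cluster went from 1.41 to 1.18. No member was past 2-fold, against 1 of 9 (hsa-miR-18b-5p, on 1 and 6 counts) when every microRNA counted in both libraries was kept. Over all 1024 microRNAs kept in that setting, 120 were at least 2-fold higher and 77 at least 2-fold lower. Members with an interval above 1 numbered 2, and 0 among the 3 tested at a mean of 1000 CPM. With total scaling, and with the total without the 2 most abundant microRNAs, they numbered 3, hsa-miR-25-5p included. Over all 191 expressed microRNAs the number above 1 also rose, from 61 to 72 and 73 in turn. The number below 1 fell from 80 to 67 in both settings. With precursor rows summed, hsa-miR-25-3p took 16.9% of its seed pool in shELOVL5 and 22.7% in shLuc, against 27.3% and 34.8%. In that setting hsa-miR-92a-3p counts for both of its rows, which may hold the same reads. For single members, 49 of 57 values under the alternatives stayed inside the counting interval. Some of these could hardly leave it, since no member has several precursor rows and thinning redraws the same counts. The other 8 comprised 7 under a scaling and hsa-miR-106a-5p summed with hsa-miR-17-5p, at 1.19. The 7 were hsa-miR-93-5p and hsa-miR-25-3p under each of the 3 scalings, and hsa-miR-106b-3p with the total without the 2 most abundant microRNAs. The ratio of hsa-miR-18b-5p, 0.170 with an interval that includes 1, became 0.879 with 5 CPM added and turned to 1.22 when summed with hsa-miR-18a-5p, which supplies nearly all counts of that sum. Among the 6 members with an interval clear of 1, no alternative turned the direction. With 0 to 90 counts, hsa-miR-18b-5p, hsa-miR-20b-5p and hsa-miR-363-3p are limited by depth, and the deepest members by the lack of replicates.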
